A study of Mus musculus with 17 samples.

Results

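The carboxylesterases are enzymes of the endoplasmic reticulum that cut ester and amide bonds in drugs, prodrugs and lipids, and in the gut they meet swallowed compounds before these reach the liver. The mouse carries several tandem copies of each family. The Ces1 genes described here lie in 1 cluster on chromosome 8 (GRCm38.p6, chr8:93166072-93337209, 4 genes) and the Ces2 genes in another (chr8:104734003-104969537, 6 genes). The nuclear receptor PXR, encoded by Nr1i2, binds DNA with its partner RXR when a ligand such as pregnenolone 16α-carbonitrile (PCN) is present, and raises transcription of enzymes and transporters that handle foreign compounds. Ces2a is known as one of its target genes in mouse liver and intestine.

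The 10 genes Ces1d, Ces1e, Ces1f, Ces1g, Ces2a, Ces2b, Ces2c, Ces2e, Ces2f and Ces2g were chosen by name out of 37325 genes or transcripts named on the array. No filter on their values was used in this choice, but earlier results of these data were known when it was made. Each was read by 1 probe of 60 bases. Ces2f had a second probe, which was above the background on 0 of 17 arrays and was not tested. All 10 probes used were well above the local background on all 17 arrays, so no member was lost to the filter on dim probes.

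The samples were colon RNA of male mice on the C57Bl/6J background, on 1-colour Agilent arrays. The WT CONT and WT PCN groups, with 4 mice each, were purchased mice aged 6 weeks on arrival and given 2 weeks to settle. The 5 mice of Pxr-/- CONT and the 4 of Pxr-/- PCN carried a deletion of the receptor in the whole body and came from a colony kept for 10 years in the same facility, their age not being stated. Both PCN groups were injected with 100 mg/kg of the compound on each of 4 days and both CONT groups with the corn oil vehicle, and all were killed 6 h after the last dose. Genotype and colony of origin cannot be told apart in this design. The RNA is of the whole tissue, so fewer cells of a type and less RNA per cell cannot be told apart either.

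Before the results, 4 of the 17 arrays have to be set apart. WT PCN 4 and Pxr-/- PCN 2 differed over 32160 probes with an SD of only 0.136 on the log2 scale, and WT PCN 3 and Pxr-/- CONT 2 with an SD of 0.155, against 0.260 to 0.577 for the other 134 pairs. Over the 10 carboxylesterases the mean absolute difference was 0.0427 and 0.0422 within these pairs and 0.124 to 1.58 in the other pairs. Each pair joins an array labelled WT PCN with an array labelled Pxr-/-, on different slides. No label was changed, and results are given from all 17 arrays, from the 13 arrays without WT PCN 3, WT PCN 4, Pxr-/- CONT 2 and Pxr-/- PCN 2, or from both, as stated with them. The 13 arrays hold only 2 WT PCN mice.

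The tissue carried its defining markers. All 8 colonocyte genes, all 6 goblet cell genes and all 6 smooth muscle genes on the lists were above background on every array. Markers of other tissues varied between arrays. The summed log2 level of 8 hepatocyte genes was 15.05 in WT CONT 5 and 12.87 and 12.46 in WT PCN 1 and 2, against 10.80 to 12.30 in the other 14 arrays. That of 7 pancreatic acinar genes was 20.63 in WT CONT 4 and 18.73 and 18.70 in the pair WT PCN 3 and Pxr-/- CONT 2, against 11.54 to 14.67 elsewhere. Nr1i2 itself read 11.97 to 12.31 in WT CONT, 12.44 and 11.85 in WT PCN 1 and 2, 11.10 and 11.15 in WT PCN 3 and 4, 10.39 to 11.61 in Pxr-/- CONT and 10.95 to 11.93 in Pxr-/- PCN. Whether its probe lies in the deleted part is not given in the sources used here, so it does not check the labels.

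Ces2a was the member with the widest spread over the arrays and the only one called in any fit with fewer arrays. Its probe, shown because every Ces2a value rests on it, is placed by the array files on mm9 chr8:107263207-107263266, plus strand, and starts at base 1139 of the RefSeq transcript. Its longest stretch in common with any other member's probe is 9 bases. Probes were compared only with each other, so whether this probe also matches the transcript of another carboxylesterase was not tested.
Ces2a probe: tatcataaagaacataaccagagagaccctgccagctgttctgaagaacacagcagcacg

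RefSeq holds a promoter window, from 250 bases before to 50 bases after the start site, for 7 of the 10 members (GRCm38.p6). Those before the start sites of Ces2a and Ces2f are shown because these genes had, after Ces2b and Ces2c, the most similar profiles among the members over 17 arrays (r = 0.94), while over 13 arrays Ces1f and Ces1g were closer (0.96, against 0.93). The capitals mark the letters AGGTCA, the half-site that nuclear receptors of this class recognise.
Ces2a promoter, chr8:104733753-104734002, plus strand: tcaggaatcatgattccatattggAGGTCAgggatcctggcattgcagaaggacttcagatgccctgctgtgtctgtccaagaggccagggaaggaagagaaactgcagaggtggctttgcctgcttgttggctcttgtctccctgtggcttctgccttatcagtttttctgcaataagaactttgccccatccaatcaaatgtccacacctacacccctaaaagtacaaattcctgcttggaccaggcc
Ces2f promoter, chr8:104947106-104947355, plus strand: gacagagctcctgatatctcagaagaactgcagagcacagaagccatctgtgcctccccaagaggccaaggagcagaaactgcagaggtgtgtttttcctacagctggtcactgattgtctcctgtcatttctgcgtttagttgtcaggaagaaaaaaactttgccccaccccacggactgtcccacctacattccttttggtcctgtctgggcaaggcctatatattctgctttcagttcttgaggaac

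The letters AGGTCA and AGTTCA were searched on both strands. Only the Ces2a window held one, AGGTCA, starting 226 bases before the start site on the strand of the gene. Of all 32851 promoter windows of this length, 16.3% hold AGGTCA and 14.0% hold AGTTCA. DR3, DR4 and ER6, the paired arrangements of these half-sites, were in 0 of the 7 windows, and they are in 0.0122%, 0.0274% and 0.00913% of all windows. TATAAA, searched on both strands, was in 1 of the 7 windows, that of Ces1g, and is in 13.6% of all windows. A match or its absence in these windows is a description of the letters. The Ces2a and Ces2f windows share 2 identical runs of 12 or more bases, agaaactgcagaggtg and aactttgcccca, at like distances from the start sites, 152 and 176 bases before for the first and 71 and 93 for the second. The longest run shared by any of the 21 pairs of windows is 17 bases, in Ces2a and Ces2e, and the profiles of Ces2a and Ces2e had an r of 0.38 over 17 arrays.

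The first comparison asks what PCN did to these genes in mice with the receptor. In WT CONT, Ces2a read 11.89, 11.42, 12.05 and 11.50 in replicates 2 to 5, as log2 of the normalised signal. In WT PCN it read 14.05, 13.98, 9.78 and 10.59 in replicates 1 to 4. Replicates 1 and 2 lay above every other array of the series, while replicates 3 and 4 lay below all WT CONT arrays, in the range of the Pxr-/- arrays.

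Over all 17 arrays the Ces2a difference was therefore small beside its error, 0.52 on the log2 scale (SE 0.72, adjusted p = 0.958 by limma with Benjamini-Hochberg adjustment). Without the 4 near-identical arrays it was 2.30 (SE 0.24, 95% interval 1.77 to 2.84, limma adjusted p = 0.00664), 4.94-fold higher with PCN and called. Without WT PCN 3 and 4 alone it was 2.30 as well (limma adjusted p = 0.00278), when 0.101% of probes were called higher. A call needs an FDR no higher than 0.05 together with a change of more than 1.5-fold. Of the 10 members, 0 were called with all arrays, when 0% of the 38703 probes tested were, and 1 with 13 arrays, when 0.0491% were. At an unadjusted p under 0.05 the counts were 0 and 2 members, against 4.66% and 4.68% of all probes. Within the 2 baths in which the arrays were washed, Ces2a was higher by 2.33 and 2.28 without the near-identical arrays, each resting on 1 WT PCN mouse, and differed by -0.20 and 2.28 with them.

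Ces2f, a less studied member of the Ces2 cluster, ran in parallel at the dim end of the array. It read 7.20, 7.15, 7.35 and 6.89 in WT CONT and 8.45, 8.15, 6.49 and 6.84 in WT PCN. Again replicates 1 and 2 were the highest of the series and replicates 3 and 4 fell below every WT CONT array. Its difference was 0.39 (SE 0.34, limma adjusted p = 0.956) over 17 arrays. Over 13 arrays it was 1.15 (SE 0.22, unadjusted p = 0.000324, limma adjusted p = 0.190), 2.22-fold higher and not called.

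**Figure D1:**
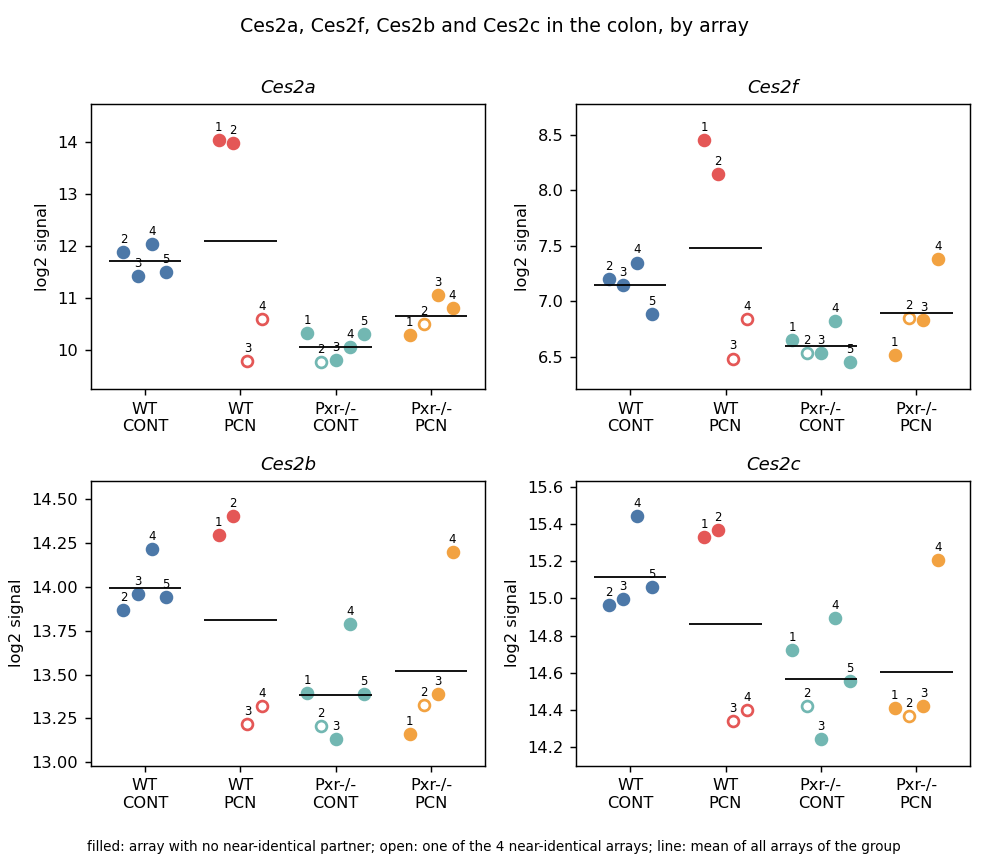
Log2 normalised signal of Ces2a, Ces2f, Ces2b and Ces2c on each array, by group (4 mice each in WT CONT, WT PCN and Pxr-/- PCN, 5 in Pxr-/- CONT), with the replicate number beside each point, open circles for the 4 near-identical arrays and a line at the mean of the group. In Ces2a, WT PCN 1 and 2 sit at 14.05 and 13.98 and WT PCN 3 and 4 at 9.78 and 10.59; in all 4 genes every Pxr-/- CONT array lies below every WT CONT array.

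Ces2b and Ces2c are neighbours in the cluster, and Ces2c is known to hydrolyse triglycerides in liver. Ces2b read 13.87, 13.96, 14.22 and 13.94 in WT CONT and 14.30, 14.40, 13.22 and 13.32 in WT PCN. Ces2c read 14.96, 15.00, 15.44 and 15.06 in WT CONT and 15.33, 15.37, 14.34 and 14.40 in WT PCN. For Ces2b, replicates 1 and 2 exceeded all WT CONT arrays, whereas for Ces2c WT CONT 4 was the highest array of the series.

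Their PCN differences in WT were -0.13 (SE 0.27) and -0.18 (SE 0.24) over 17 arrays and 0.35 (SE 0.26) and 0.24 (SE 0.23) over 13, with limma adjusted p from 0.956 to 1.00. The 95% intervals over 13 arrays, -0.22 to 0.92 and -0.28 to 0.75, hold both no change and increases over 1.5-fold. With 13 arrays, Ces2a, Ces2b and Ces2f were higher in both WT PCN mice than in all 4 WT CONT mice, 3 of 10 members, as were 6.39% of all probes tested. With all arrays, 0 members were free of overlap in either direction, when 1.36% of probes were higher and 1.29% lower without overlap.

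The probes of Ces2b and Ces2c are not fully independent. They share 24 identical bases, shown because it bears on how far these genes can be told apart, and the next longest stretch shared by any of the 45 pairs of member probes is 9 bases. The annotation of the Ces2c probe also lists the transcript of Ces2d-ps, a pseudogene of the same cluster.
Ces2b and Ces2c probes, shared stretch: TGTCACCTCAGTCTTTGAGCTTTC

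The other Ces2 genes and the Ces1 genes, whose products include the lipid hydrolases of liver and fat, were not called for PCN in WT. With 17 and 13 arrays 0% and 0.0491% of all probes were. Replicates 1 and 2 of WT PCN lay above replicates 3 and 4 for Ces2e, Ces2g and Ces1d, while replicate 1 was the lowest of the group for Ces1e, Ces1f and Ces1g. For Ces2e, replicates 3 and 4 (13.95 and 13.94) lay below every WT CONT array. Over 13 arrays Ces2e differed by 0.01 (SE 0.34) and Ces2g by 0.25 (SE 0.63). Ces1d, known for hydrolysing triglycerides, had the largest value of the Ces1 family, 0.78 (SE 0.45, limma adjusted p = 1.00). Ces1e differed by 0.25 (SE 0.31), Ces1f by 0.03 (SE 0.65) and Ces1g, the hydrolase also called Es-x, by -0.23 (SE 0.94). The median over the members was 0.02 with 17 arrays and 0.25 with 13, beside 0.00 for all probes in both cases. It was 0.30 for the Ces2 genes and 0.14 for the Ces1 genes with 13 arrays.

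**Figure D2:**
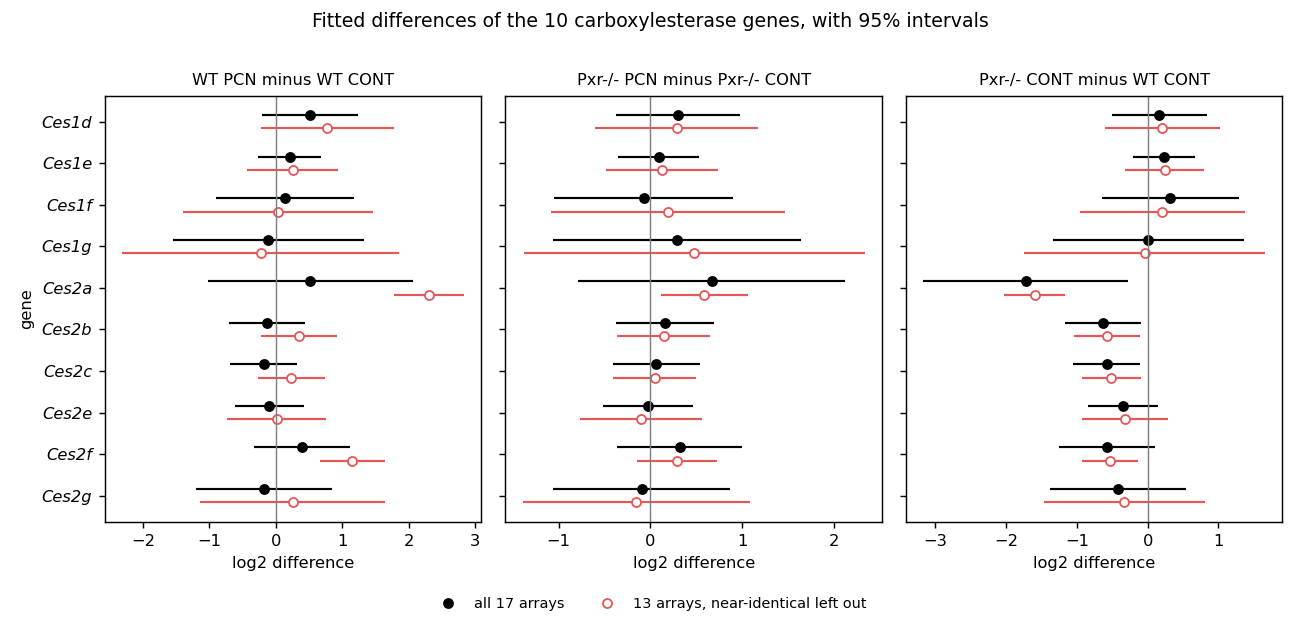
Fitted log2 differences of the 10 genes with 95% intervals for PCN in WT, PCN in Pxr-/- and genotype without PCN, from all 17 arrays (filled) and from 13 arrays (open); both PCN panels and the genotype panel share control arrays. The Ces2a interval for PCN in WT runs from 1.77 to 2.84 with 13 arrays and crosses 0 with 17.

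The second comparison gives the PCN effect in mice without the receptor. Ces2a read 10.33, 9.75, 9.80, 10.05 and 10.30 in Pxr-/- CONT and 10.29, 10.49, 11.05 and 10.80 in Pxr-/- PCN. Replicates 2, 3 and 4 of the PCN group lay above all controls and replicate 1 did not. The difference was 0.67 (SE 0.68, limma adjusted p = 0.894) over 17 arrays and 0.59 (SE 0.21, unadjusted p = 0.0193, limma adjusted p = 0.599) over 13 arrays.

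Ces2f read 6.66, 6.53, 6.54, 6.83 and 6.45 in Pxr-/- CONT and 6.52, 6.85, 6.83 and 7.38 in Pxr-/- PCN, groups that overlap, and its difference over 13 arrays was 0.29 (SE 0.20). Ces2b and Ces2c differed by 0.15 (SE 0.23) and 0.04 (SE 0.21) over 13 arrays. Of the 10 members 0 were called in Pxr-/- by limma with either set of arrays, when 0.00517% of probes were called with 17 arrays and 0.0517% with 13. At an unadjusted p under 0.05, 0 members passed with 17 arrays and 1, Ces2a, with 13, against 7.35% and 7.19% of probes.

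Pxr-/- PCN 4 decided several values in this comparison. It was the highest array of the series for Ces1d (11.49), Ces1e (10.69), Ces1f (12.78), Ces1g (10.65) and Ces2e (14.76) and the lowest for Ces2g (7.33). The other 3 Pxr-/- PCN arrays read 9.85, 10.23 and 10.07 for Ces1d and 9.31, 8.80 and 9.88 for Ces2g. When this array was left out of the 17, the PCN difference in Pxr-/- went from 0.30 to -0.06 for Ces1d, from 0.29 to -0.61 for Ces1g and from -0.10 to 0.47 for Ces2g, with 0 members called in either case. Ces2c in this array was 15.21 beside 14.37 to 14.42 in the other 3.

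Whether PCN acted differently in the 2 genotypes was tested by the interaction. For Ces2a the Pxr-/- effect minus the WT effect was 0.14 (SE 0.99, limma adjusted p = 0.980) over 17 arrays and -1.72 (SE 0.32, 95% interval -2.43 to -1.01, unadjusted p = 0.00027, limma adjusted p = 0.950) over 13. For Ces2f it was -0.07 (SE 0.46) and -0.86 (SE 0.30, unadjusted p = 0.0144, limma adjusted p = 1.00). The sign of the Ces2a value thus rests on the near-identical arrays, and after adjustment over all probes 0 members were called with 17 or 13 arrays, as were 0% and 0.00258% of probes. At an unadjusted p under 0.05, 0 and 2 members passed, against 5.38% and 2.95% of probes.

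The third comparison sets Pxr-/- CONT against WT CONT, neither of which received PCN. All 5 Pxr-/- CONT arrays lay below all 4 WT CONT arrays for Ces2a, Ces2b, Ces2c and Ces2f, 4 of the 10 members, while 3.01% of the probes tested were lower without overlap. Without Pxr-/- CONT 2, the only array of these groups among the near-identical ones, the same 4 genes were free of overlap, beside 3.72% of probes. The values for Pxr-/- CONT were 13.39, 13.20, 13.13, 13.79 and 13.39 for Ces2b and 14.72, 14.42, 14.24, 14.89 and 14.56 for Ces2c. Replicate 4 came closest to WT CONT for these genes.

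Over 17 arrays Ces2a was 1.72 lower on the log2 scale (a difference of -1.72, SE 0.68, 3.30-fold lower, unadjusted p = 0.0232, limma adjusted p = 0.336). The group means were 11.71 ± 0.30 in WT CONT (SD, n = 4) and 10.04 ± 0.27 in Pxr-/- CONT (SD, n = 5). Ces2b differed by -0.63 (SE 0.25), Ces2c by -0.58 (SE 0.22) and Ces2f by -0.57 (SE 0.32), 1.55-fold, 1.49-fold and 1.48-fold lower in Pxr-/- CONT, with limma adjusted p of 0.338, 0.328 and 0.467. Over 13 arrays these genes differed by -0.57 (SE 0.21), -0.51 (SE 0.19) and -0.53 (SE 0.18). None of the 10 members was called with 17 or 13 arrays, and neither was any other probe (0%). At an unadjusted p under 0.05, 3 members passed with 17 arrays and 4 with 13, against 12.7% and 10.1% of probes.

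The fit shares 1 estimate of the spread over all groups, and WT PCN, with an SD of 2.24 for Ces2a, enters it. In a fit to WT CONT and Pxr-/- CONT alone Ces2a was called, at -1.69 (limma adjusted p = 0.035), as 0.0181% of all probes were called lower. Without WT PCN 3 and 4 it was called as well, at -1.67 (SE 0.19, limma adjusted p = 0.0294), as 0.00517% of probes were called lower. With 13 arrays it was -1.60 (SE 0.20, limma adjusted p = 0.0976). Within the wash baths the difference was -1.73 and -1.65 over all arrays, close to the value of the joint fit.

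The 6 nearest protein-coding genes of other families that flank the Ces2 cluster, 3 on each side, all had a probe that was tested. Their genotype differences lay between -0.22 and 0.44 over 17 arrays. Of these neighbours 0 were called and 0 passed an unadjusted p under 0.05, against 0% and 12.7% of all probes. For PCN in WT over 13 arrays these neighbours differed by -0.08 to 0.10. Within the cluster, Ces2e and Ces2g had genotype differences of -0.35 (SE 0.23) and -0.41 (SE 0.45) over 17 arrays and -0.32 (SE 0.27) and -0.33 (SE 0.51) over 13, and the groups overlapped for both.

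Ces2e read 13.99, 14.15, 14.63 and 14.26 in WT CONT and 14.05, 13.91, 13.92, 14.10 and 13.68 in Pxr-/- CONT. The 4 Ces1 genes differed by 0.01 to 0.32 between the genotypes over 17 arrays, with SEs of 0.21 to 0.63. The members' median was -0.38, made of -0.57 for the Ces2 genes and 0.20 for the Ces1 genes, beside 0.01 for all probes.

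**Figure D3:**
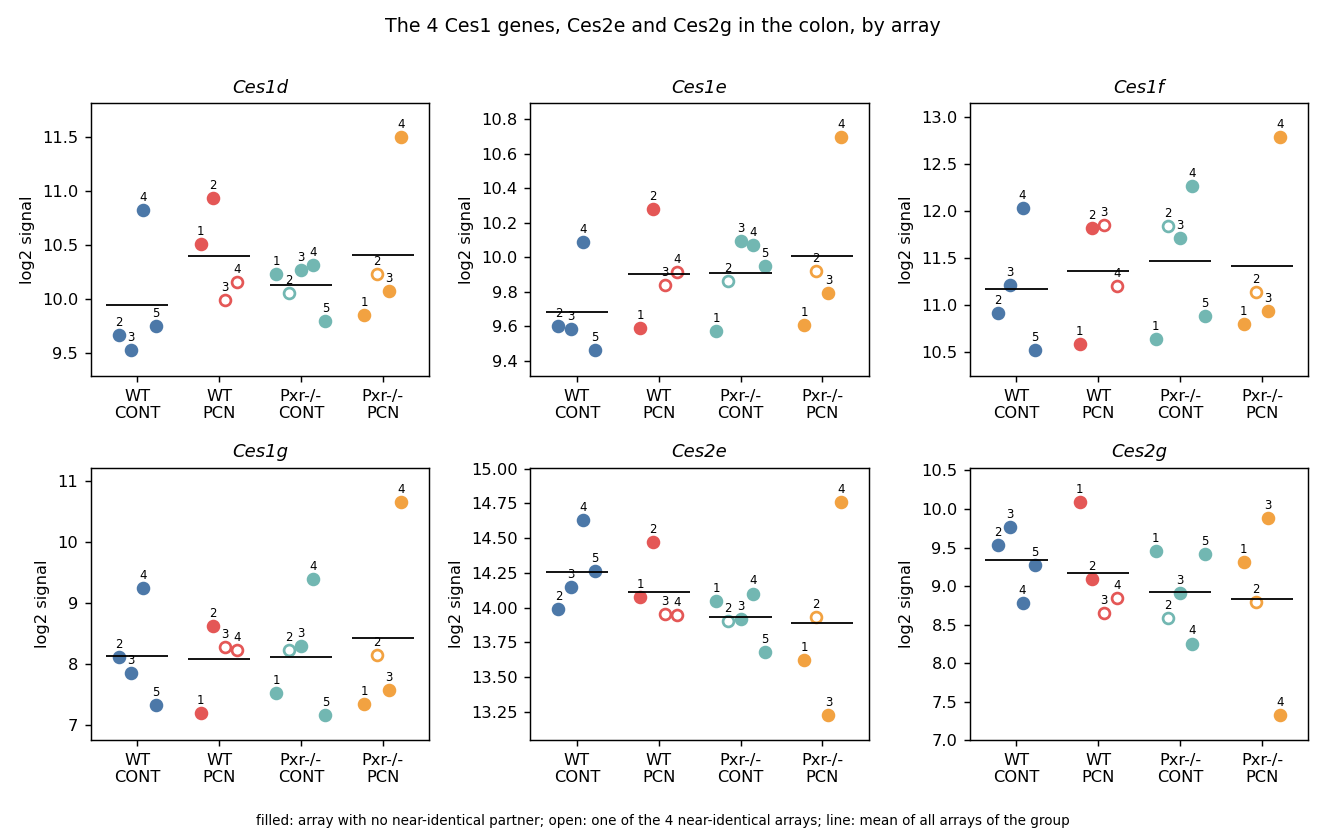
Log2 normalised signal of Ces1d, Ces1e, Ces1f, Ces1g, Ces2e and Ces2g on each array, by group, drawn as for Ces2a. The groups overlap for all 6 genes, and Pxr-/- PCN 4 is the highest array for the first 5 (10.65 for Ces1g) and the lowest for Ces2g (7.33).

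Across the 17 arrays the members fell into profiles that cut across the groups. Ces2b and Ces2c had a Pearson r of 0.98 and Ces2a and Ces2f of 0.94, and the 4 genes had r of 0.78 or more with each other. Ces1f and Ces1g had an r of 0.92, and the 4 Ces1 genes r of 0.65 or more. Ces2g ran against the Ces1 genes, with r from -0.87 for Ces1g to -0.59 for Ces1d. These are descriptions over arrays that include the near-identical pairs.

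The Ces1 and Ces2g profiles moved with the position markers of the colon, and also with the colonocyte markers. Hoxb13, Hoxd12, Hoxd13 and Hoxa13, genes of the most posterior part of the body axis, served as the distal colon list, and all or all but 1 of the 4 were above background on every array. Their summed log2 level, carried mostly by Hoxb13, was 15.67 to 16.16 in 8 arrays and 13.06 to 14.61 in 8 others, with Pxr-/- PCN 4 at 8.98. Each of the 4 groups had arrays on both sides of the gap. WT CONT 2, 3 and 5, WT PCN 1, Pxr-/- CONT 1 and 5 and Pxr-/- PCN 1 and 3 were the 8 with the higher level.

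Ces1g read 7.16 to 8.11 in those 8 arrays and 8.15 to 10.65 in the other 9. Ces2g read 9.27 to 10.09 and 7.33 to 9.09, in the opposite order. The sets were cut at a gap in the marker level of these same arrays, and the share of all probes that separates them was not counted. Ces1f read 10.51 to 11.21 and 11.14 to 12.78, which overlap narrowly. Over all 17 arrays Pearson r with the distal colon list was 0.94 for Ces2g, -0.93 for Ces1g, -0.89 for Ces1f, -0.87 for Ces1e and -0.76 for Ces1d. Without Pxr-/- PCN 4 and Pxr-/- CONT 4, the arrays farthest from the median, r was 0.90, -0.83, -0.89, -0.73 and -0.52.

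Within each set of arrays only part of this remained. Among the 8 arrays with the higher marker level r was 0.72 for Ces2g and between -0.15 and 0.29 for the Ces1 genes. Among the 8 others apart from Pxr-/- PCN 4 it was 0.80 for Ces2g, -0.85 for Ces1f, -0.73 for Ces1g, -0.10 for Ces1e and -0.05 for Ces1d. Ces2a had an r of 0.18 over 17 arrays and read 14.05 and 13.98 in WT PCN 1 and 2, of which the first lies above the gap and the second below it. Over 17 arrays Spearman rho with the colonocyte list was -0.89 for Ces2g, 0.89 for Ces1g, 0.81 for Ces1f, 0.75 for Ces1e and 0.56 for Ces1d. With the distal colon list it was 0.94, -0.84, -0.82, -0.72 and -0.49, and with the hepatocyte list 0.84, -0.72, -0.76, -0.53 and -0.34. The part of the sampled stretch of colon, or of the mix of cells, in these profiles was not tested.

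**Figure D4:**
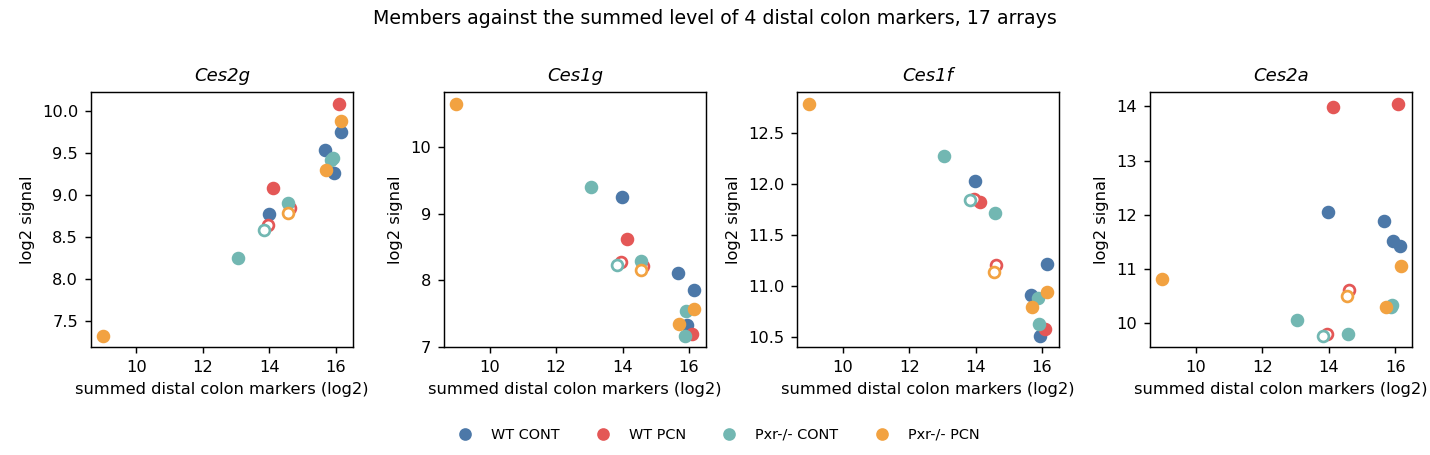
Log2 normalised signal of Ces2g, Ces1g, Ces1f and Ces2a against the summed log2 level of 4 distal colon markers on 17 arrays, coloured by group, with open circles for the near-identical arrays. Ces2g runs from 7.33 at the low end to 10.09 at the high end and Ces1g the other way, from 10.65 to 7.16, while Ces2a shows its 2 high WT PCN arrays on both sides of the gap.

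Markers of the small intestine moved in the same array. The summed level of Sis, Lct, Alpi, Fabp6, Slc10a2 and Apoa4 was 13.79 in Pxr-/- PCN 4 and 9.90 to 11.71 in the other 16 arrays. Only 3 to 5 of these 6 genes were above background per array. Pearson r of the sum over 17 arrays was 0.81 for Ces1g, 0.80 for Ces1d and -0.74 for Ces2g. Spearman rho, which the extreme array moves less, was 0.63, 0.73 and -0.50. The adipocyte list (7 genes) was 13.73 to 15.60 in WT CONT and 12.86 to 14.54 in Pxr-/- CONT, with r of 0.74 for Ces2c and 0.67 for Ces2b. The goblet cell list was 19.92 to 20.20 in WT CONT and higher, 20.26 to 20.39, in Pxr-/- CONT. Its r over 17 arrays was -0.69 for Ces2b, -0.64 for Ces2c, -0.64 for Ces2f and -0.58 for Ces2a. Over 13 arrays these lay between -0.60 and -0.45. The hepatocyte list had an r of 0.48 and a Spearman rho of 0.58 with Ces2a over 17 arrays. Its highest array, WT CONT 5, read 11.50 for Ces2a. The next highest, WT PCN 1 and 2, read 14.05 and 13.98 for Ces2a. Alb read 12.68 in WT CONT 5 and 9.21 and 9.50 in WT PCN 1 and 2. The part of these tissues and cells in the Ces2 values was not tested.

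By profile over the 17 arrays, and among 24866 genes searched, the genes most like Ces2a were Celf3 (r = 0.94, 0.95 over 13 arrays), Ces2f (0.94 and 0.93) and Abcb1b (0.94 and 0.96). Spearman rho over 17 arrays was lower, 0.87, 0.88 and 0.78. Those most like Ces2b and Ces2c were each other, Coro1b and C1qtnf1, with r from 0.90 to 0.98. Ces2f was most like a transcript with no gene symbol, Ces2a and Celf3, with r from 0.92 to 0.95.

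Ces2g had the closest match of the family, Ly6g6e, with r of 0.98 and Spearman rho of 0.97, followed by B3gnt7 with 0.97 (Pearson). Ces1g was most like Prss23, Ccdc74a and Slc17a4, all with r of 0.95. Ces1f was most like Myo3a and Lysmd4, Ces1e like Adam11 and Akr1c19, and Ces1d like Fgl2, Lgi4 and Trip6, with r from 0.91 to 0.93. Ces2e had the loosest matches, Adhfe1, Arl3 and Fam189b, at 0.88 to 0.90. The unnamed transcripts among these were left out.

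Known PXR target genes were read from a list of 18, of which 13 were tested. With 17 arrays 0 of the 13 were called for PCN in WT, and 0 passed an unadjusted p under 0.05. With 13 arrays 3 were called by limma, all higher, and 6 passed it. Of all probes, 0% and 0.0491% were called with 17 and 13 arrays, and 4.66% and 4.68% passed it. The 3 called were Abcb1a (1.36, SE 0.13) and Abcb1b (1.49, SE 0.16), which code for drug efflux pumps, and Akr1b7 (1.96, SE 0.19), an aldo-keto reductase. Their limma adjusted p were 0.00622, 0.00664 and 0.00622. Cyp2c55, a cytochrome P450 with a difference of 2.38 (SE 1.03), was not called. The list's median was 0.21 in both sets.

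The 3 called targets were picked by a fit whose only WT PCN arrays were replicates 1 and 2. Their high values in these mice follow from that choice, and the other tested targets are not given by array. Abcb1b read 10.93, 10.80, 10.83 and 10.82 in WT CONT and 12.28, 12.40, 9.95 and 9.83 in WT PCN. Abcb1a read 13.87, 13.98, 13.89 and 14.02 in WT CONT, 15.26 and 15.33 in WT PCN 1 and 2, and less than all of these in WT PCN 3 and 4, down to 12.76. Akr1b7 read 8.37, 8.48, 8.92 and 8.37 in WT CONT and 10.71, 10.28, 8.16 and 7.26 in WT PCN. Replicates 1 and 2 were above and replicates 3 and 4 below all WT CONT arrays for each of these genes. In the genotype comparison over 17 arrays Abcb1a was at -0.87 (SE 0.43, limma adjusted p = 0.423), and 0 of the 13 were called by limma or passed an unadjusted p under 0.05. Over 13 arrays 0 were called and 3 passed an unadjusted p under 0.05, Abcb1a (-0.77, SE 0.11), Abcb1b (-0.67, SE 0.13) and Akr1b7 (-0.61, SE 0.15), each at a lower level in Pxr-/- CONT. Of all probes, 0% were called with 17 or 13 arrays, and 12.7% and 10.1% passed an unadjusted p under 0.05.

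Other esterases and lipid hydrolases were read from a list of 28 genes, 22 of them tested. In each of the 4 comparisons 0 were called by limma with 17 or 13 arrays, and 0 to 2 passed an unadjusted p under 0.05. Of all probes, 0% to 0.0517% were called and 2.95% to 12.7% passed it. The list's median lay between -0.11 and 0.02. The carboxylesterase Ces3a had the largest genotype value on it over 17 arrays, -1.59 (SE 0.57, limma adjusted p = 0.304). Ces3a read 9.58 in WT CONT 5, the array with the highest hepatocyte markers, and 6.23 to 6.30 in the other WT CONT arrays, against 5.39 to 5.87 in Pxr-/- CONT. Ces1b, a Ces1 gene that is not among the 10, differed by -0.56 (SE 0.38) for PCN in WT over 17 arrays. Aadac, an esterase of the endoplasmic reticulum, differed by -0.36 (SE 0.18, limma adjusted p = 0.706) for PCN in Pxr-/- over 17 arrays.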

How the data were processed

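Cy3-labelled colon RNA of 17 mice was hybridized to 1-colour Agilent arrays on 8 slides, washed in 2 baths. The authors deposited the scanner output of Agilent Feature Extraction 10.10.1.1, in which the intensity of a spot is the median brightness of its pixels, not yet normalized, with flags (of the unit type other) for outliers and for signal over background. A deposited table holds the authors' log2 values of 36695 probes, corrected for the bath and normalized by CrossNorm, which could not be repeated from its description.

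Here, outlier spots were left out of 59305 non-control spots, the remaining intensities were put on the log2 scale and quantile-normalized between arrays, and replicate spots were averaged to 56605 probes. A probe entered the test when 4 or more arrays had it well above background (38703 probes). The test used limma 3.58.1 in R 4.3.3, with the 4 groups and the bath in the model, with Benjamini-Hochberg adjustment over all tested probes. Following the methods of the study, a call needed an FDR no higher than 0.05 and a change of more than 1.5-fold. Of several probes of a gene, the one with the highest mean in the deposited log2 table was used. The share of probes well above background ran from 61.0% to 69.7% per array, 0 spots were saturated, and the number of arrays limits the precision. The fit was tested on simulated data.

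Groups and replicate numbers follow the labels. The near-identical arrays carry different labels, so they were not averaged. The members, the gene lists and the tests were chosen with earlier results of these data known. All 10 members were described, with each called gene and up to 3 genes with the largest differences per list and comparison, not all of them named. Values of lists and neighbours, correlations and motif counts are descriptions without a test. Probe positions within exons or introns and protein sequences were not analysed here.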

Additional observations from a re-analysis of the deposited data

Results flagged for a closer look

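Of 40 sets of values (10 members in 4 groups) 1 held an array far from the others: Ces2c read 15.21 in Pxr-/- PCN 4, against 14.37 to 14.42 in the other 3 arrays of that group, a gap of 0.939 of the whole range. Chance alone flags about 1 in 20 such sets. The same array had the lowest distal colon markers (8.98) and the highest small intestinal markers (13.79) of the series, and their part in the Ces2c value was not tested.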

How the results depend on the processing

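With all 17 arrays 0 members were called in any of the 4 comparisons, also with the authors' log2 values, the processed signal, normexp, other filters, kept outlier spots, no bath term, slide as a block, array weights, another variance model, 1 probe per gene or an FDR of 0.1 without a fold limit. Over all probes tested, these settings called 0 to 2 probes per comparison, apart from 521 of 38703 with array weights for genotype. For the FDR of 0.1 the count over all probes is not given here. Ces2a gave the exceptions. For PCN in WT 1 member was called without WT PCN 3 and 4 and 1 without all 4 near-identical arrays. For genotype 1 was called with only the groups of the contrast and 1 without WT PCN 3 and 4. The interaction uses all groups, so a fit on fewer groups was not made. Leaving out each array of the compared groups in turn gave 0 to 0 called members in each comparison. Over all 38703 probes these fits called 0 to 2, apart from 18 for PCN in WT without WT PCN 3. Ces2a for PCN in WT moved from -0.24 (without WT PCN 1) to 1.22 (without WT PCN 3). Its genotype difference stayed between -1.90 and -1.57 when arrays were left out and between -1.82 and -1.05 (slide as a fixed block) in the other alternatives. Of 670 values under alternatives 40 changed sign, and of 430 with an array left out 59 did, none of them called.

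The second probe of Ces2f, above background on 0 of 17 arrays, gave no value. Same-numbered mice of different groups share only a number: over 22 pairs the correlation of their deviations ran from -0.390 to 0.558, and 12 were over 0.1. With the replicate number as a block 0 members and 0 of 38703 probes were called in each comparison, and Ces2a was at -1.82 for genotype.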
